A study of Mus musculus with 6 samples.

Results

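The genes of the TCA cycle and of pyruvate entry into it were compared between mouse cells that overexpressed one of a pair of PPARγ2 mutants. They are 34 genes chosen by name, of 56884 gene IDs in the tables, and each name matched 1 gene ID. *Me3*, a mitochondrial malic enzyme, lay under the filter on low values, so 33 of the 15426 genes tested were members. PPARγ2 is the adipocyte isoform of the nuclear receptor that drives adipogenesis. The cells were an immortalized line of the stromal vascular fraction (SVF) of mouse subcutaneous white adipose tissue (scWAT), the fraction that holds adipocyte precursors. They were infected with a retroviral vector for HA-tagged mouse PPARγ2 with glutamine (K382Q, the acetylation mimic) or arginine (K382R, the deacetylation mimic) at lysine 382, and RNA was sequenced from 3 replicates of each mutant.

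Both groups, called K382Q and K382R cells from here on, carried the same vector backbone and were harvested at day 2 after the same induction medium for beige adipocytes. It held the PPARγ ligand rosiglitazone at 0.5 μM, thyroid hormone (T3) at 1 nM, insulin at 5 μg/mL, dexamethasone at 2 μg/mL, indomethacin at 125 μM and isobutylmethylxanthine at 500 μM. The growth medium was rich in glucose and had no added pyruvate. Cells with an empty vector or with wild-type PPARγ2 were not analysed here, so each difference is between the mutants and has no baseline. The labels call the replicates biological but do not say whether they came from separate infections, so p-values measure the spread between these cultures.

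The cycle oxidizes acetyl-CoA in the mitochondrial matrix and passes the electrons to the respiratory chain. Pyruvate enters the matrix through the mitochondrial pyruvate carrier and is turned into acetyl-CoA by the pyruvate dehydrogenase complex, or into oxaloacetate by pyruvate carboxylase. Kinases switch the dehydrogenase complex off by phosphorylation and phosphatases switch it on again. In adipocytes, cycle intermediates also leave the matrix as citrate, malate and aspartate, for fatty acid synthesis and for the transfer of reducing equivalents. In beige and brown adipocytes the cycle feeds thermogenic respiration.

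The libraries held 5.95 to 8.15 Gb of aligned sequence. The first principal component, with 61.3% of the variance, separated the mutants. *Pparg* itself, endogenous and introduced transcripts together, was at 1104 to 1333 TPM (transcript abundance normalized to gene length and library) in K382Q cells and 1590 to 1632 TPM in K382R cells (log2 fold change -0.43 ± 0.06, SE, adjusted p = 9.8e-04). Adipocyte markers were present in every library (3 of 8 higher and 2 of 8 lower in K382Q cells), and *Fabp4* alone took 37390 to 50292 TPM. The 6 markers of preadipocytes or fibroblasts summed to 503 to 547 TPM in K382Q cells and 857 to 893 TPM in K382R cells. Of these markers 4 were lower in K382Q cells and *Dpp4* was at 0 throughout. Leukocyte markers summed to 3.20 to 5.10 TPM, nearly all of it *Cd68*, with *Adgre1* and *Cd3e* at 0. The part of these differences in the results below was not tested. In bulk RNA, fewer cells of a type and less RNA per cell cannot be told apart.

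In K382Q cells, 17 of the 33 tested members (51.5%) were higher and 5 (15.2%) were lower, at an adjusted p under 0.05 in limma on log2(TPM + 0.5). Over all genes tested, 11.1% were higher and 36.9% were lower. Apart from *Pdk1*, a kinase of the pyruvate dehydrogenase complex, the changes were small. *Pdk1* was the single member past a 2-fold change, where 1.27% of all genes were higher and 2.61% lower by that rule, and *Idh1* was the next at 1.43-fold. The groups did not overlap in 18 members that were higher in K382Q cells, against a background of 14.1%, and in 6 that were lower, against 42.8%.

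The median log2 fold change of the members was 0.10, where that of all genes tested was -0.14. TPM adds up to the same total in each library, and rescaling by the median ratio between libraries put the median of all genes at 0.0039 and that of the members at 0.25. On that scale 24 members were higher (background 19.9%) and 2, *Got2* and *Mpc2*, were lower (background 20.4%). All 17 members that were higher by TPM were also called higher there. Of the 33 tested members, 29 lay above the median of all genes. The TPM of all 34 members summed to 7387 to 7497 in K382Q cells and 7112 to 7197 in K382R cells, without overlap.

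**Figure D1:**
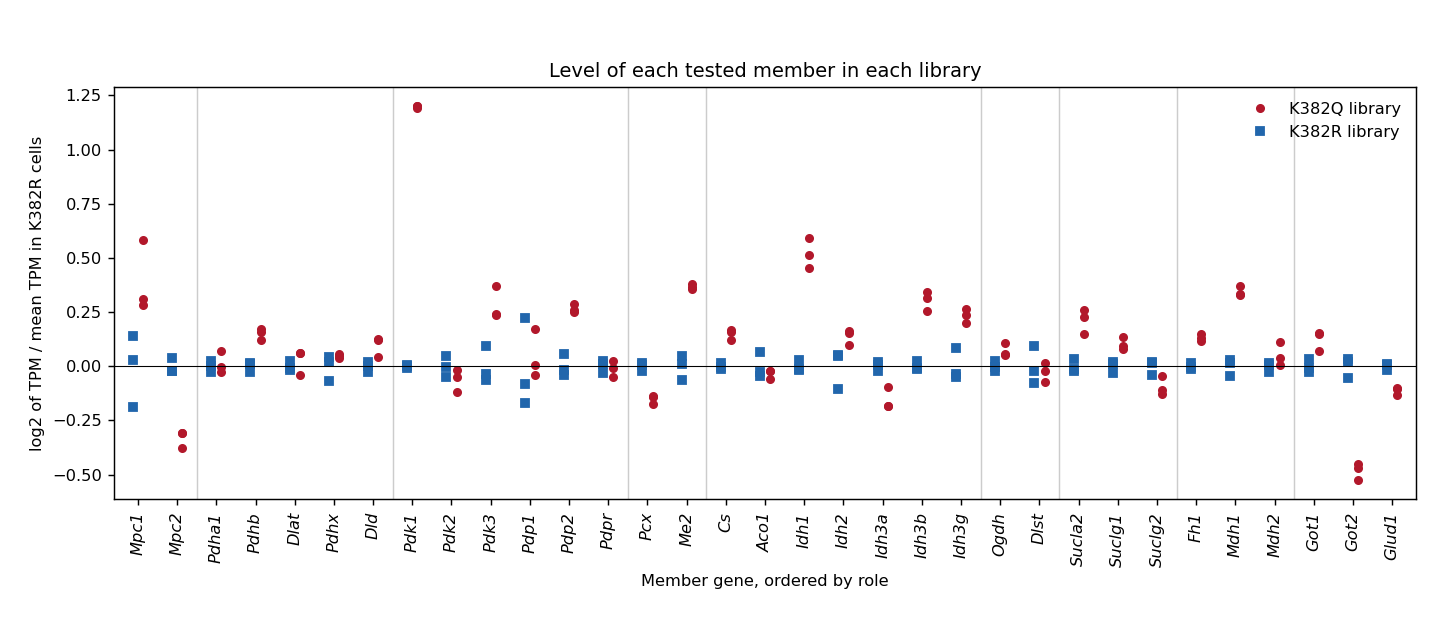
Level of each of the 33 tested members in each of the 6 libraries, as the log2 of its TPM over its mean TPM in K382R cells (vertical axis), with members ordered by role along the horizontal axis and grey lines between roles. Red circles are K382Q libraries and blue squares are K382R libraries. *Pdk1* stands more than 1 log2 unit above its K382R level, and *Got2* lies farthest below.

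The members' own levels spanned a wide range. Mean TPM over the 6 libraries was highest for *Mdh2* (868), *Pcx* (687), *Cs* (608) and *Idh3a* (497), and 23 of the 34 members had at least 100 TPM in every library. The lowest were *Pdp2* (11.6), *Pdp1* (3.90) and *Me3* (0.353). The order differed between TPM and coverage, and the cause of that was not tested. By coverage per base *Mdh2* also ranked 1 and *Cs* ranked 2, but *Pcx* fell from 2 to 19, *Mpc2* from 6 to 17 and *Mpc1* from 15 to 30 among the 34 members. Comparisons of 1 gene between the mutants do not rest on that order.

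Pyruvate import. The mitochondrial pyruvate carrier is built from a MPC1 and a MPC2 subunit, and the 2 genes changed in opposite directions. *Mpc1* (ENSMUSG00000023861.18, chr17:8501736-8516493, plus strand, GRCm39) was at 204, 251 and 208 TPM in K382Q cells and 147, 171 and 185 TPM in K382R cells. *Mpc2* (ENSMUSG00000026568.7, chr1:165288206-165308783, plus strand) was at 319, 335 and 334 TPM in K382Q cells and 426, 408 and 408 TPM in K382R cells. Each gene was thus separated between the groups without overlap, *Mpc1* with all K382Q libraries on top and *Mpc2* with all of them below. The log2 fold change was 0.40 ± 0.10 (SE, adjusted p = 0.0132) for *Mpc1* and -0.33 ± 0.03 (adjusted p = 1.2e-04) for *Mpc2*.

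Within each library, TPM of *Mpc1* was 0.622 to 0.751 of that of *Mpc2* in K382Q cells and 0.346 to 0.453 in K382R cells. The difference in the log2 ratio was 0.73, which no scaling of a library can move. The exact permutation test, two-sided, gave p = 0.1, the smallest that 3 libraries against 3 allow (adjusted p = 0.111 over the 10 pairs of members compared). *Mpc1* had the largest standard error of the called members, and the relation between its coverage and its TPM varied by up to 30.5% between libraries. By coverage its log2 fold change was 0.38. With no filter on low values its adjusted p was 0.0614.

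Pyruvate dehydrogenase complex. The 5 genes of the complex moved little, and their log2 fold changes ran from 0.01 to 0.15. *Pdhb*, the β subunit of the E1 enzyme, was higher in K382Q cells, at 338 ± 6.32 TPM against 305 ± 5.11 TPM (SD, n = 3 each; log2 fold change 0.15 ± 0.03, SE, adjusted p = 0.0034). *Dld*, the E3 enzyme shared with other dehydrogenase complexes, was called higher by 7.02% (adjusted p = 0.0388). That call was lost without any 1 of the libraries other than K382Q replicate 2 and with coverage in place of TPM. *Pdha1*, the E1 α subunit, was at 287 to 307 TPM in K382Q cells and 288 to 298 TPM in K382R cells. Its log2 fold change of 0.01 had a 95% interval of -0.06 to 0.09. *Dlat*, the E2 enzyme, and *Pdhx*, the E3-binding protein, did not pass the test either, with log2 fold changes of 0.03 and 0.05. By median-ratio scaling all 5 were called higher, by 0.17 to 0.30.

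Kinases and phosphatases of the complex. *Pdk1* (ENSMUSG00000006494.12, chr2:71703568-71734202, plus strand) was the member that differed most among the 33 tested. It was at 71.3, 71.4 and 71.1 TPM in K382Q cells and 31.2, 31.1 and 30.9 TPM in K382R cells. The 3 libraries of a group lay within 1 TPM of each other, and the groups were far apart. The log2 fold change was 1.19 ± 0.03 (SE, adjusted p = 4.0e-07), and it was 1.34 by median-ratio scaling and 1.17 by coverage. The mean TPM of K382Q cells was 2.29-fold that of K382R cells.

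The other kinases differed less. *Pdk3* was at 36.6, 40.0 and 36.5 TPM in K382Q cells and 29.6, 30.2 and 33.0 TPM in K382R cells, without overlap (log2 fold change 0.28 ± 0.06, adjusted p = 0.0053). *Pdk2* was at 34.3, 35.2 and 32.7 TPM in K382Q cells and 34.4, 36.8 and 35.5 TPM in K382R cells, and these overlapped. Its log2 fold change of -0.06 had a 95% interval of -0.17 to 0.05, which does not reach the change of *Pdk1*, and it was 0.09 by median-ratio scaling.

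The balance of the kinases therefore differed. *Pdk1* made up 48.7 to 50.7% of the summed TPM of *Pdk1*, *Pdk2* and *Pdk3* in K382Q cells and 31.1 to 32.8% in K382R cells. With *Pdk4*, the fourth kinase and no member of the list, in the sum, *Pdk1* made up 15.2 to 15.3% and 11.9 to 12.1%, and *Pdk4* 68.7 to 70.0% and 61.3 to 63.2%. The ratio of *Pdk1* to *Pdk2* was 2.03 to 2.17 in K382Q cells and 0.844 to 0.908 in K382R cells, and that of *Pdk1* to *Pdk3* was 1.79 to 1.95 and 0.936 to 1.06. The differences in the log2 ratio were 1.26 and 0.91 (exact permutation p = 0.1 each, adjusted p = 0.111). *Pdk4* was thus the most abundant of the kinase genes. It was at 328, 322 and 328 TPM in K382Q cells and 163, 163 and 158 TPM in K382R cells (log2 fold change 1.01 ± 0.03, adjusted p = 4.0e-07), so both *Pdk1* and *Pdk4* were about doubled. The fold of *Pdk4* sat on the threshold, with a log2 fold change of 0.99 by coverage.

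**Figure D2:**
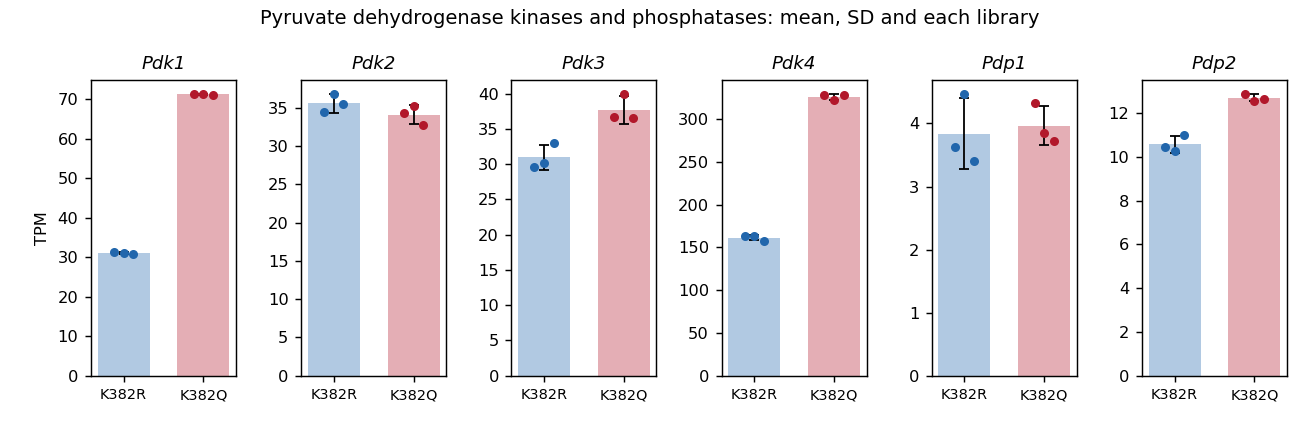
TPM of the 4 pyruvate dehydrogenase kinase genes and of the phosphatase genes *Pdp1* and *Pdp2* in K382R (blue) and K382Q (red) cells, with bars for the mean, black lines for the SD over 3 libraries and points for single libraries; each panel has its own axis from 0. *Pdk1* and *Pdk4* are about 2-fold higher in K382Q cells, and *Pdk2* and *Pdp1* overlap.

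The phosphatase genes were low. *Pdp2* was at 12.9, 12.6 and 12.7 TPM in K382Q cells and 10.5, 10.3 and 10.98 TPM in K382R cells, without overlap (log2 fold change 0.26 ± 0.06, adjusted p = 0.0081). *Pdp1* was at 4.32, 3.85 and 3.73 TPM in K382Q cells and 3.63, 4.47 and 3.41 TPM in K382R cells, which overlapped, and the interval of its log2 fold change ran from -0.24 to 0.33. The ratio of *Pdp1* to *Pdp2* overlapped as well (exact permutation p = 0.2, adjusted p = 0.2). *Pdpr*, a regulatory subunit of the phosphatase, was at 23.7 ± 0.628 and 23.9 ± 0.473 TPM (SD, n = 3 each), a log2 fold change of -0.01 that became 0.14 by median-ratio scaling.

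The bases before the start of transcription are shown for *Pdk1*, the tested member that differed most, for *Pdk2*, its relative that did not pass the test, and for *Pdp2*, the phosphatase gene that was higher. They are the 250 bases upstream of the start of each gene's canonical transcript in GENCODE mouse release 39, read from GRCm39 on the strand of the gene, 5′ to 3′. Capitals mark the letters CACGTG, which hold ACGTG, the core of the hypoxia response element, on both strands. The *Pdk1* bases lie at chr2:71703238-71703487 (plus strand), those of *Pdk2* at chr11:94932241-94932490 (minus strand) and those of *Pdp2* at chr8:105317802-105318051 (plus strand). The *Pdk1* and *Pdk2* stretches also hold exons of long noncoding RNAs on the opposite strand in that annotation, and 2 bases of the *Pdk2* stretch lie in an exon of *Pdk2* itself.
Pdk1: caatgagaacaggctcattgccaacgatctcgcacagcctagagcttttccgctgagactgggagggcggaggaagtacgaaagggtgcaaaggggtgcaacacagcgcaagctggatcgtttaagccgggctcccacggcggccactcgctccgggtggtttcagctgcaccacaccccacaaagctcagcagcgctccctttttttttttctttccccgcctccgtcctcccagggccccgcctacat
Pdk2: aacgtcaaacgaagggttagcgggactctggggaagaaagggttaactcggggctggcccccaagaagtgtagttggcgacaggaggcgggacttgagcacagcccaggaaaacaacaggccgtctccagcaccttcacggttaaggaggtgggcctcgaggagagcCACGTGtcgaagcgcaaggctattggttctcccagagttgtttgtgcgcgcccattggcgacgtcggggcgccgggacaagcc
Pdp2: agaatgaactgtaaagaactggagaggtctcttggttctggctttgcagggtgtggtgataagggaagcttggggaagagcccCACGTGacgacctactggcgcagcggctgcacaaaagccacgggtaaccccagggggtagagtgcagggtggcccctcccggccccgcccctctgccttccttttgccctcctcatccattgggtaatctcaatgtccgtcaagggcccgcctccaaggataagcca

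Over windows from 250 bases before to 50 after the start, ACGTG was present on either strand in 9 of the 34 members and in 20.7% of 21757 windows of protein-coding genes. These were *Pdhb*, *Pdk2*, *Pdp2*, *Pdpr*, *Pcx*, *Idh2*, *Idh3g*, *Ogdh* and *Mdh1*. AAGGTCA, an extended site of estrogen-related receptors, was present in 2 of 34, *Pdpr* and *Got1*, and in 4.48% of all windows. CGCATGCG, the NRF1 motif, was present in 0 of 34 and in 2.59% of all windows. None of these letters was in the *Pdk1* window. A match is a description of letters and not a site in use.

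Carboxylation and malic enzymes. Pyruvate carboxylase, the enzyme that refills the cycle with oxaloacetate, is encoded by *Pcx*. It was at 654, 657 and 641 TPM in K382Q cells and 731, 726 and 711 TPM in K382R cells, a log2 fold change of -0.15 ± 0.03 (adjusted p = 0.0022). The log2 fold change was 0.0024 by median-ratio scaling, -0.25 by quantile normalization (adjusted p = 6.2e-04) and -0.18 by coverage, so the call depended on the scaling. *Me2*, the NAD-dependent malic enzyme of mitochondria, which turns malate into pyruvate, was at 86.4, 85.6 and 85.05 TPM in K382Q cells and 66.9, 63.5 and 68.5 TPM in K382R cells. The groups were apart, with a log2 fold change of 0.37 ± 0.04 (adjusted p = 1.4e-04). *Me3*, the NADP-dependent one, was near the lower limit, at 0.230, 0.202 and 0.159 TPM in K382Q cells and 0.284, 0.595 and 0.646 TPM in K382R cells, and was not tested. The difference in the log2 ratio of *Me2* to *Me3* was 1.67 without a pseudocount and 0.88 with 0.5 added to both.

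Citrate to oxoglutarate. Of the 7 genes of this stretch, 5 were higher, 1 was lower and 1 did not pass the test. *Cs*, citrate synthase, the entry step of the cycle, was at 640 ± 10.5 TPM in K382Q cells and 577 ± 6.36 TPM in K382R cells (SD, n = 3 each; log2 fold change 0.15 ± 0.03, SE, adjusted p = 0.0024). *Aco1*, the cytosolic aconitase that also serves as an iron-regulatory protein, did not pass the test, at 118 ± 1.79 and 121 ± 5.11 TPM. Its log2 fold change of -0.03 became 0.12 by median-ratio scaling.

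*Idh1* (ENSMUSG00000025950.17, chr1:65197775-65225659, minus strand), the NADP-dependent isocitrate dehydrogenase of the cytosol and a source of NADPH, rose most after *Pdk1*. It was at 268, 243 and 254 TPM in K382Q cells and 181, 177 and 176 TPM in K382R cells. The lowest K382Q library was well above the highest K382R library, and the log2 fold change was 0.52 ± 0.04 (adjusted p = 3.4e-05).

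*Idh2*, its mitochondrial counterpart, was at 139, 138 and 133 TPM in K382Q cells and 129, 116 and 128 TPM in K382R cells. The log2 fold change was 0.14 ± 0.05 (adjusted p = 0.0410), and the call was lost without K382R replicate 2, which was the lowest library (adjusted p = 0.0976), without any 1 K382Q library and by coverage. The ratio of *Idh1* to *Idh2* was 1.76 to 1.93 in K382Q cells and 1.37 to 1.53 in K382R cells by TPM, but 0.671 to 0.737 and 0.519 to 0.577 by coverage, so which gene is the more abundant depends on the measure. The log2 ratio differed by 0.38 (exact permutation p = 0.1, adjusted p = 0.111).

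The NAD-dependent isocitrate dehydrogenase of the cycle has an α subunit and β and γ subunits, and these went apart. *Idh3a*, the α subunit, was at 490, 461 and 462 TPM in K382Q cells and 530, 516 and 526 TPM in K382R cells (log2 fold change -0.15 ± 0.03, adjusted p = 0.0058). *Idh3b* was at 287 ± 8.70 TPM against 232 ± 3.24 TPM (log2 fold change 0.30 ± 0.03, adjusted p = 1.6e-04) and *Idh3g* at 222 ± 4.98 TPM against 189 ± 9.85 TPM (0.23 ± 0.04, adjusted p = 0.0025; SD and n = 3 for TPM). Thus *Idh3b* and *Idh3g* rose while *Idh3a* fell by the TPM scale, and *Idh3a* was at -0.0018 by median-ratio scaling, where *Idh3b* was at 0.46 and *Idh3g* at 0.39. The log2 ratio of *Idh3a* to *Idh2* differed by -0.30 between the mutants (exact permutation p = 0.1, adjusted p = 0.111).

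Oxoglutarate dehydrogenase. *Ogdh* and *Dlst*, the E1 and E2 enzymes of this complex, did not pass the test. *Ogdh* was at 164 to 171 TPM in K382Q cells and 156 to 161 TPM in K382R cells, apart but close (log2 fold change 0.07, 95% interval 0.0013 to 0.14, adjusted p = 0.0875). By median-ratio scaling *Ogdh* was called higher, at 0.22 (adjusted p = 5.0e-04). *Dlst* was at 186 to 198 TPM in K382Q cells and 185 to 209 TPM in K382R cells, and overlapped. Its log2 fold change was -0.03 by TPM, 0.13 by median-ratio scaling and -0.10 by coverage, the last of these with an adjusted p of 0.0295.

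Succinyl-CoA ligases. These enzymes share an α subunit, encoded by *Suclg1*, which pairs with an ATP-forming β subunit (*Sucla2*) or a GTP-forming one (*Suclg2*). *Sucla2* was at 155, 144 and 152 TPM in K382Q cells and 128, 128 and 133 TPM in K382R cells, without overlap (log2 fold change 0.21 ± 0.04, adjusted p = 0.0022). *Suclg2* was at 60.0, 59.2 and 62.6 TPM in K382Q cells and 63.0, 65.7 and 65.4 TPM in K382R cells. The K382Q libraries lay below the K382R libraries, but the log2 fold change of -0.09 did not pass the test (adjusted p = 0.0753), and it was 0.06 by median-ratio scaling. The ratio of *Sucla2* to *Suclg2* was 2.42 to 2.59 in K382Q cells and 1.96 to 2.03 in K382R cells, with a difference of 0.31 in the log2 ratio (exact permutation p = 0.1, adjusted p = 0.111). *Suclg1* was called higher by 7.49% (adjusted p = 0.0219), and the call was lost without K382Q replicate 2 (adjusted p = 0.0579), K382R replicate 2 (0.0839) or K382R replicate 3 (0.0541).

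Fumarase and malate dehydrogenases. *Fh1*, fumarase, was at 104 ± 1.16 TPM in K382Q cells and 94.5 ± 0.876 TPM in K382R cells (log2 fold change 0.13 ± 0.03, adjusted p = 0.0069). The cytosolic malate dehydrogenase gene *Mdh1* (ENSMUSG00000020321.17, chr11:21506692-21522367, minus strand) was at 425, 438 and 427 TPM in K382Q cells and 346, 328 and 342 TPM in K382R cells. All 3 K382Q libraries were higher, with a log2 fold change of 0.35 ± 0.03 (adjusted p = 6.9e-05). The mitochondrial *Mdh2* was at 856, 922 and 874 TPM in K382Q cells and 862, 857 and 837 TPM in K382R cells, which overlapped (log2 fold change 0.05, 95% interval -0.03 to 0.13). By median-ratio scaling *Mdh2* was called higher, at 0.21 (adjusted p = 0.0048). The ratio of *Mdh1* to *Mdh2* was 0.475 to 0.497 in K382Q cells and 0.383 to 0.408 in K382R cells, a difference of 0.29 in the log2 ratio (exact permutation p = 0.1, adjusted p = 0.111).

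Aspartate and glutamate. The aspartate aminotransferases interconvert oxaloacetate and aspartate and, with the malate dehydrogenases, form the malate-aspartate shuttle. *Got2*, the mitochondrial one (ENSMUSG00000031672.9, chr8:96590762-96615175, minus strand), was the member with the greatest fall among the 33 tested. It was at 214, 226 and 223 TPM in K382Q cells and 313, 297 and 315 TPM in K382R cells. The groups were far apart, and the log2 fold change was -0.48 ± 0.04 by TPM (adjusted p = 2.8e-05) and -0.33 by median-ratio scaling, short of 2-fold by either.

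*Got1*, the cytosolic one (ENSMUSG00000025190.14, chr19:43488191-43513044, minus strand), was at 112, 119 and 119 TPM in K382Q cells and 107, 110 and 105 TPM in K382R cells. It was called higher, with a log2 fold change of 0.12 ± 0.04 (adjusted p = 0.0229), and the call was lost without K382Q replicate 2 (adjusted p = 0.0644), K382Q replicate 3 (0.0741), K382R replicate 1 (0.0681) or K382R replicate 3 (0.0785). The ratio of *Got1* to *Got2* was 0.524 to 0.533 in K382Q cells and 0.333 to 0.369 in K382R cells, a difference of 0.61 in the log2 ratio (exact permutation p = 0.1, adjusted p = 0.111). *Glud1*, glutamate dehydrogenase, which links glutamate to oxoglutarate, was at 174 ± 2.15 TPM against 188 ± 2.02 TPM. Its log2 fold change was -0.11 ± 0.03 by TPM (adjusted p = 0.0101) and 0.04 by median-ratio scaling.

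**Figure D3:**
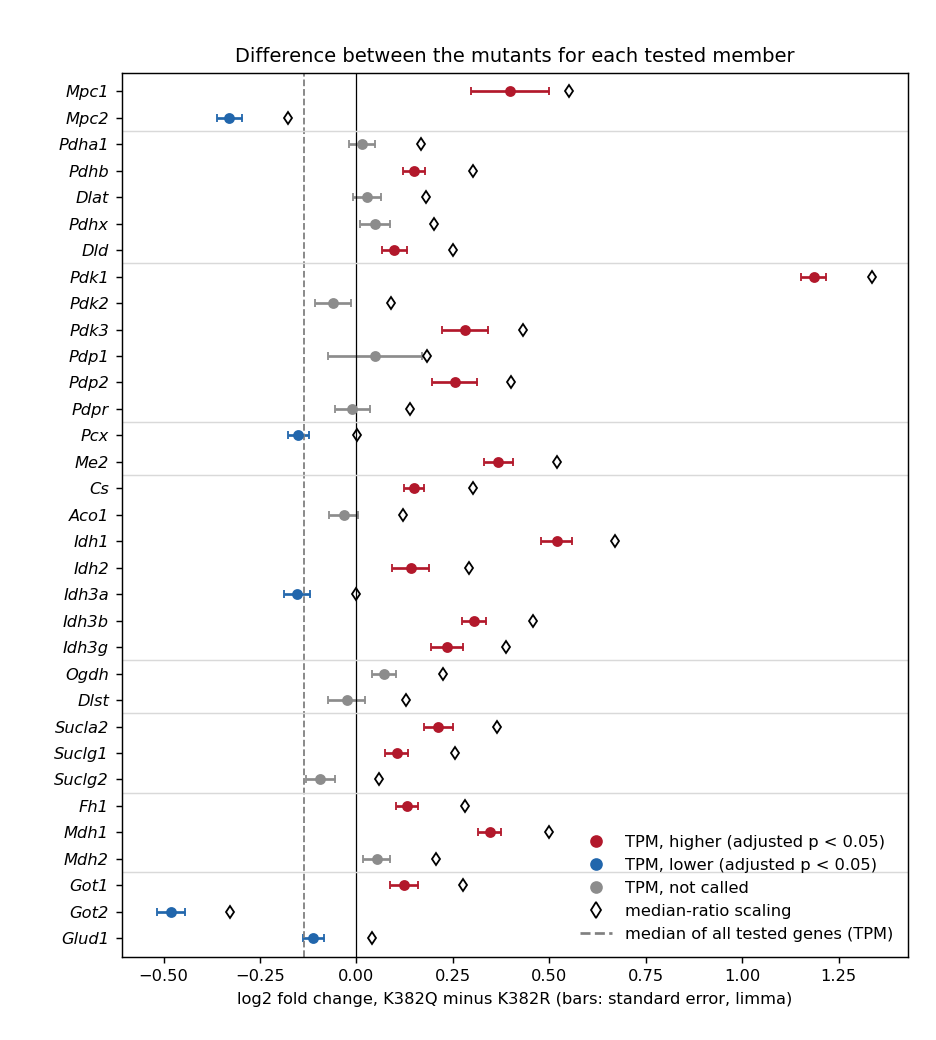
Log2 fold change of each of the 33 tested members, K382Q minus K382R (horizontal axis), with members in rows in the order of their roles. Filled circles with standard errors are from TPM, red where called higher, blue where called lower and grey where not called at an adjusted p under 0.05; open diamonds are from median-ratio scaling and the dashed line is the median of all genes at -0.14. *Got2* and *Mpc2* stay below 0 by both, while *Pcx* and *Glud1* move to 0 or above.

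In 3 pairs of members one enzyme works in the cytosol and its counterpart in mitochondria, *Idh1* and *Idh2*, *Mdh1* and *Mdh2*, and *Got1* and *Got2*. In each pair the ratio of the cytosolic to the mitochondrial gene was higher in every K382Q library than in every K382R library. Across all pairs compared, 9 of 10 had ratios that did not overlap between the groups, *Pdp1* to *Pdp2* being the one that did. The same held for 70.6% of the 528 pairs that the tested members can form. Of all pairs of tested genes above 0 TPM in every library, it held for 49.3%. *Me2* to *Me3*, among the 9, lies outside both of these shares because *Me3* was not tested. The 10 pairs were chosen with earlier results known. No pair could reach an adjusted p under 0.05 with 3 libraries a group. By coverage in place of TPM the differences kept their direction in all 10 pairs, while the ratios themselves moved, and that of *Idh1* to *Idh2* was the one that passed from above 1 to below 1 in every library.

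**Figure D4:**
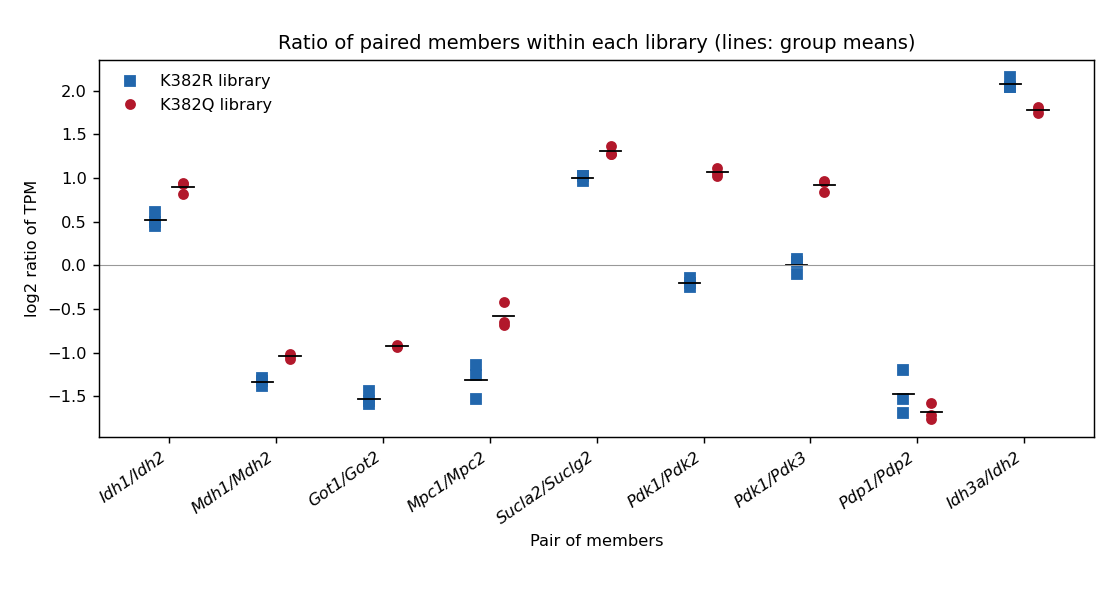
Log2 ratio of TPM between 2 members in the same library (vertical axis) for 9 of the 10 pairs (horizontal axis), with K382R libraries as blue squares, K382Q libraries as red circles and group means as black lines; *Me2* to *Me3* is left out because its values lie off the scale. The groups do not overlap in 8 of the 9 pairs shown, and the widest gap is that of *Pdk1* to *Pdk2*, 1.26.

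Other genes of the pathway were taken from a list of 30 genes, of which 29 were tested. Of these, 13 were higher and 6 were lower in K382Q cells, against 11.1% and 36.9% of all genes tested. Among the 4 subunit genes of succinate dehydrogenase, the cycle enzyme that is also complex II of the respiratory chain, 3 were higher, *Sdha* by 0.14, *Sdhb* by 0.20 and *Sdhd* by 0.09, and *Sdhc* was at 0.06 and did not pass the test. The *Sdhd* call was lost without K382Q replicate 3, K382R replicate 1 or K382R replicate 3 (adjusted p of 0.0572 to 0.0766).

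Among the called genes of that list with the greatest change were *Pdk4*, *Slc25a22*, *Ldha* and *Gls2*. *Ldha*, which reduces pyruvate to lactate, was the most abundant gene of the pathway lists, at 2415, 2436 and 2459 TPM in K382Q cells and 1817, 1810 and 1885 TPM in K382R cells (log2 fold change 0.41 ± 0.03, adjusted p = 2.5e-05). *Gls2*, a glutaminase, was at 9.46 ± 0.991 TPM against 7.01 ± 0.221 TPM (log2 fold change 0.40 ± 0.09, adjusted p = 0.0067). *Slc25a22*, a mitochondrial glutamate carrier, was at 78.6 ± 4.73 TPM in K382Q cells and 55.7 ± 6.25 TPM in K382R cells (0.50 ± 0.08, adjusted p = 0.0015; SD and n = 3 for TPM).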

How the data were processed

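RNA was sequenced from 6 libraries (3 of each mutant). According to the study's methods and the processing notes, the authors aligned reads to GRCm39 with HISAT2 and quantified genes with StringTie, and the annotation release is not given in the sources used here. The authors deposited 1 gene table per library with coverage (mean depth per base), FPKM and TPM. Counts were not analysed here, so no interval from counts is given, and the precision is that of 3 libraries a group. Entries of a repeated gene ID (at most 8 a library) were summed. The aligned length of a library is the most common rounded value of coverage divided by FPKM among its genes with FPKM above 1.

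A gene was tested if 3 or more libraries had it at 0.5 TPM or higher. The test was made with limma 3.58.1 (R 4.3.3, intensity trend) on log2(TPM + 0.5), K382Q minus K382R, two-sided, with Benjamini-Hochberg adjustment over the 15426 genes. Log2 fold changes on this scale understate those of low genes. Ratios within libraries were compared by exact permutation (scipy 1.17.1). The members, lists, pairs and motifs were chosen with earlier results of these data known, and full values are given for members past an absolute log2 fold change of 0.5 and for members of a pair. Of the listed related genes, the 5 called with the largest change were to be named, and the succinate dehydrogenase genes were added outside that rule, after their values were seen. A few of the listed genes are left out of the text. *Slc25a1* and *Slc25a10* are named for their reversal under scaling.

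GENCODE mouse release 39 held all 34 members on the same chromosome and strand, but only 1 with the same start and end, so it was used for transcript starts alone. The alternatives tried were each library left out in turn, a block for the replicate number, weights for the libraries, a fit with no trend, normalization by quantiles or by median ratios, FPKM, other filters (none, or 1 TPM) and other pseudocounts (0.1 and 1). Coverage in place of TPM across all genes was added after the data were seen.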

Additional observations from a re-analysis of the deposited data

How the results depend on the processing

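Of the 17 members called higher, 12 were called higher under all 17 alternatives (*Cs*, *Fh1*, *Idh1*, *Idh3b*, *Idh3g*, *Mdh1*, *Me2*, *Pdhb*, *Pdk1*, *Pdk3*, *Pdp2* and *Sucla2*), and of the 5 called lower, *Got2* and *Mpc2* were. The number of members called lower was 2 with FPKM, 2 with median-ratio scaling and 3 with quantile normalization, and it was 5 with each library left out in turn. Among genes called in either fit, median-ratio scaling reversed the log2 fold change to 0.14 for *Pdpr*, 0.0024 for *Pcx*, 0.12 for *Aco1*, 0.040 for *Glud1*, 0.0088 for *Slc25a1* (citrate carrier) and 0.053 for *Slc25a10* (dicarboxylate carrier), and quantile normalization to 0.15 for *Pdpr*. Of genes called in neither fit, the members *Pdk2*, *Dlst* and *Suclg2* also changed sign by median-ratio scaling. The median of the members was 0.084 with no filter, where *Me3* enters, 0.18 with FPKM, 0.25 with median-ratio scaling, 0.18 with quantile normalization, 0.081 with coverage and 0.083 to 0.11 without each library in turn. The number of related genes called lower was 3 with FPKM, 2 with median-ratio scaling, 2 with quantile normalization and 3 to 6 without each library in turn (3 without K382Q replicate 3, K382R replicate 1 or K382R replicate 2).

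The replicate numbers did not pair the libraries, since same-numbered deviations correlated at -0.02, 0.05 and 0.02. With a replicate block 14 members were called higher and 5 lower, *Dld*, *Idh2* and *Suclg1* being lost. The number of members called higher was 14 to 15 without each library in turn. Without counts, depth limits could not be given for *Me3* and *Pdp1*, the lowest members. Other causes of these shifts were not tested.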
